A study of Mus musculus with 8 samples.

Results

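mmu-mir-451a, mmu-mir-486a, mmu-mir-486b and mmu-mir-144 are microRNAs (miRNAs) known for their high levels in developing and circulating red blood cells, and they were followed here through 8 small RNA libraries of mouse sperm. The 4 miRNAs were chosen on measured values, the difference in these same libraries between activated and control mice, so their levels by group are a description and carry no test. They are 4 of 859 miRNA species with at least 1 read. Their reads were those of distinct sequences annotated to these miRNAs and to no other RNA, 91 sequences over all libraries and 20 to 54 in any one library, out of 755722 to 1289744 distinct sequences per library.

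The study asked whether AgRP neurons, hunger-promoting cells of the hypothalamic arcuate nucleus, alter the small RNA content of sperm. Both groups of 4 male mice received, at 8 weeks of age, a virus with a Cre-dependent excitatory receptor, hM3Dq, fused to mCherry (AAV-hM3Dq-mCherry) in the arcuate nucleus. All 8 mice were also given the receptor's ligand CNO while food was withheld. Activated mice were Agrp Cre/+, in which Cre recombinase is made under the control of the Agrp gene, and control mice were Agrp +/+, without Cre, so that genotype was the difference between groups. Mature sperm was taken from the caudae epididymides 4 h after CNO. The sperm was released from the cut tissue and washed, and the authors checked its RNA by qPCR for a sperm marker (Prm2) and for markers of somatic and stem cells (E-cadherin and C-kit).

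Total reads were 14903635, 17489698, 14757501 and 9409491 in activated replicates 1 to 4 and 12421068, 23123740, 9297271 and 14348060 in control replicates 1 to 4. Levels are given as RPM, the reads scaled to a library total of 1000000. Reads are amplified copies without molecular identifiers, so limits drawn from a count of 0 (3 counts of the total) cover counting error only.

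Libraries stood apart from one another in 2 ways. Reads labelled Mt_rRNA (mitochondrial rRNA) accounted for 0.123% to 0.182% of the total in activated replicates 1 and 4 and control replicates 2 and 4, and 1.09% to 1.89% in the remaining 4 libraries, so each set held 2 libraries of each group. Reads labelled 12S or 16S rRNA, also mitochondrial, were not counted in these shares. Libraries are called poor or rich in mitochondrial rRNA by the label Mt_rRNA alone. Control replicate 4 also held far more miRNA of vessel and muscle (36472 summed RPM, against 181 to 524 in the other libraries) and of epithelium (19420 summed RPM, against 1085 to 3476). Results are given below with and without this library where it bears on them.

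As background, miR-451a and miR-144 are cut from one primary transcript that the erythroid factor GATA1 drives, and miR-486 is made from within the gene for ankyrin-1, a protein of the red cell membrane skeleton. miR-451a is unusual because its hairpin is too short for Dicer. Argonaute-2 cuts it instead, and the resulting longer product is then shortened from its 3′ end, so a series of lengths with a common 5′ end is the known form of this miRNA.

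In the mouse genome (GRCm38), the hairpin of mmu-mir-451a lies on chromosome 11 from 78073170 to 78073241, plus strand, and that of mmu-mir-144 from 78073005 to 78073070 on the same strand, with 99 bases between them. The annotation places mir-451b on the minus strand at the same coordinates as mir-451a, and no read was annotated to it. The hairpin of mmu-mir-486a lies on chromosome 8 from 23142555 to 23142682, plus strand. That of mmu-mir-486b lies within it on the minus strand, from 23142573 to 23142662. Both sit in an intron of Ank1, the ankyrin-1 gene, and overlap none of its exons.

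The mature forms of miR-451a and of both arms of miR-144 are shown to identify what was counted, as RefSeq gives them on GRCm38.p6, with the seed (bases 2 to 8) in capitals. Mature sequences of 2 of the 4 miRNAs were matched in the RefSeq table. The 3 seeds shown differ from one another.
mmu-miR-451a: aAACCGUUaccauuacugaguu
mmu-miR-144-3p: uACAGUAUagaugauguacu
mmu-miR-144-5p: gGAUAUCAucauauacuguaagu

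The main longer forms of miR-451a, as sequenced, are shown because the length comparison rests on them. Capitals mark the bases past the 3′ end of the mature form of 22 nt.
miR-451a, 23 nt: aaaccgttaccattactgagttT
miR-451a, 24 nt: aaaccgttaccattactgagttTA
miR-451a, 25 nt: aaaccgttaccattactgagttTAG
miR-451a, 26 nt: aaaccgttaccattactgagttTAGT

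miR-451a, the Dicer-independent member, was sequenced at 178, 46.4, 63.2 and 57.0 RPM in activated replicates 1 to 4 and at 122, 365, 542 and 263 RPM in control replicates 1 to 4. Activated replicate 1 lay above control replicate 1, so the groups overlapped, while the other 3 activated libraries lay below every control library. Activated sperm averaged 86.1 ± 61.6 RPM and control sperm 323 ± 177 RPM (SD, n = 4 each), a ratio of 0.267 (log2 ratio -1.91). Without activated replicate 1 the ratio was 0.172, and without control replicate 4 it was 0.251. Within the libraries poor in mitochondrial rRNA the ratio was 0.374 and within the rich ones 0.165, each from 2 libraries against 2 and without a test. In bulk sperm preparations, fewer cells of a type that holds these miRNAs and less of the RNA per cell cannot be told apart.

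miR-486, taken as the sum of reads that name mmu-mir-486a, mmu-mir-486b or both, stood at 97.5, 35.6, 48.4 and 25.8 RPM in activated replicates 1 to 4. In control replicates 1 to 4 it stood at 110.3, 151, 418 and 387 RPM. Every activated library lay below every control library, with a gap of only 97.5 to 110.3 RPM between the nearest 2. Group means were 51.8 ± 31.8 RPM for activated and 267 ± 158 RPM for control sperm (SD, n = 4 each), with a ratio of 0.194 (log2 ratio -2.36). It was 0.137 without activated replicate 1, 0.229 without control replicate 4, 0.229 within the libraries poor in mitochondrial rRNA and 0.159 within the rich ones. Of the 586 annotated RNA species past the count minimum, piRNA left out, 7 (1.19%) had every activated library below every control library. Nothing is read from that count for miR-486, since the choice of members used this contrast.

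miR-144, encoded beside miR-451a, was the scarcest of the 3. Activated replicates 1 to 4 held 22.5, 1.54, 1.22 and 1.28 RPM, from 335, 27, 18 and 12 reads, and control replicates 1 to 4 held 2.42, 16.001, 16.3 and 8.92 RPM, from 30, 370, 152 and 128 reads. The highest library of all 8 was an activated one, replicate 1, and the other 3 activated libraries were the lowest of all. Group means were 6.63 ± 10.6 RPM for activated and 10.9 ± 6.62 RPM for control sperm (SD, n = 4 each), with a ratio of 0.607 (log2 ratio -0.72), and without activated replicate 1 it was 0.123 (log2 ratio -3.02). That library set most of the activated mean. The ratio was 0.953 within the libraries poor in mitochondrial rRNA, which include activated replicate 1, and 0.147 within the rich ones.

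**Figure D1:**
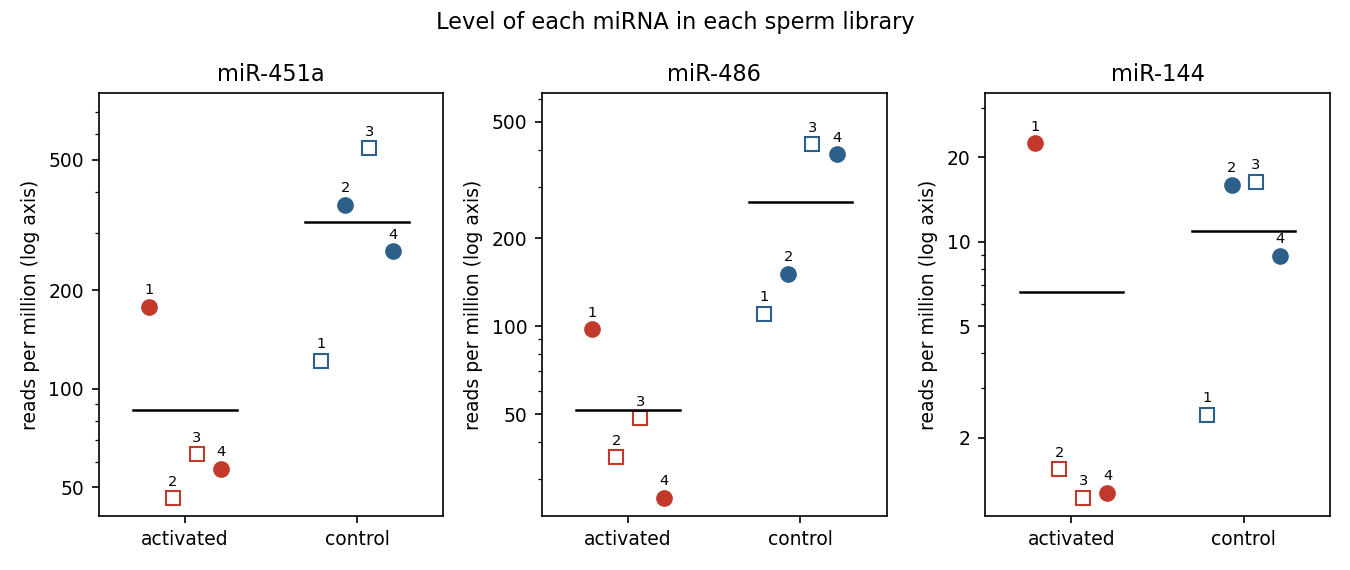
Level of miR-451a, miR-486 and miR-144 in each library, in RPM on a log axis, for 4 activated and 4 control mice (numbers are replicates, black lines are group means). Filled circles are libraries poor in mitochondrial rRNA and open squares are rich ones. Activated replicate 1 is the highest activated library in all 3 panels, at 178, 97.5 and 22.5 RPM.

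The 3 miRNAs kept the order miR-451a, miR-486, miR-144 in 7 of 8 libraries. The exception was control replicate 4, where reads of miR-451a were 0.679 of those of miR-486, against 1.11 to 2.41 in the other libraries. These neighbours in the order differed by less than their spread, with control means of 323 ± 177 and 267 ± 158 RPM (SD, n = 4 each). The share of miR-144 relative to miR-451a was 126.3 reads per 1000 in activated replicate 1 and 19.3 to 43.9 per 1000 in the other libraries. Over the 8 libraries, the Spearman correlation of RPM was 0.93 between miR-451a and miR-486, 0.76 between miR-451a and miR-144 and 0.67 between miR-486 and miR-144. These correlations describe 8 libraries that include the group contrast, and they share each library's denominator.

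Among the 273 miRNA species past the count minimum of 50 reads in at least 4 libraries, miR-451a ranked from 40 (control replicate 3) to 132 (activated replicate 4), and miR-486 ranked from 46 to 161. miR-144 ranked from 176 to 273. It passed the minimum through activated replicate 1 and control replicates 2, 3 and 4 alone. By the mean of all 8 libraries the most abundant species was mmu-mir-16, at 85317 RPM, so the members are minor components of the sperm miRNA. In control replicate 3 mmu-mir-16 stood at 34644 RPM, below mmu-mir-191, which had at least 42492 RPM in every library.

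The 5′ end of miR-451a was nearly fixed. All 23694 reads matched the 72-base hairpin exactly, and 98.99% to 99.9% per library began at base 17 of it, the first base of the mature form. No read began earlier, while 120 reads began 1 to 5 bases later and 15 began 6 to 19 bases later. Another 6 reads, of 1 sequence, ran from base 37 to base 57. Among reads that began at base 17, the 3′ ends ran from base 31 to base 46, as lengths of 15 to 30 nt.

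The 23-nt form was the most frequent miR-451a form in every library, with 45.9% of all reads against 16.004% for the mature form of 22 nt. After it the profile fell and then rose to a second maximum at 26 nt. The forms of 24, 25 and 26 nt held 6.56%, 6.19% and 13.4% of all reads, the 21-nt form 7.94%, the 27-nt form 1.61% and the 30-nt form 0.0422%. The second maximum was present in both groups. The 26-nt form made up 14.3% ± 3.22 of miR-451a in activated and 13.8% ± 1.31 in control sperm (SD, n = 4 each), and the 23-nt form 44.7% ± 1.22 and 45.3% ± 3.65 (SD, n = 4 each). Each main form had a ratio of activated to control RPM close to that of the whole miRNA, 0.307 at 21 nt, 0.251 at 22 nt, 0.270 at 23 nt, 0.303 at 24 nt, 0.269 at 25 nt and 0.249 at 26 nt.

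miR-486, a Dicer product, had a narrow profile. Its 22-nt form held 67.1% of 17339 reads, and the 21-nt form with the same 5′ end 28.96%. Fragments with this 5′ end and 23 nt or more made up 0.283%. Reads that name both mmu-mir-486a and mmu-mir-486b were 98.1% of the total, so the hairpin of origin could not be told for them. Reads naming mmu-mir-486a alone were 311, of which 180 came from control replicate 4, and those naming mmu-mir-486b alone were 19, of which 11 came from that library.

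miR-144 came mainly from its 3p arm, with 1027 of 1072 reads (95.8%), and the 5p arm gave 45. The most frequent form of the 3p arm was 1 base shorter at its 3′ end than the RefSeq form of 20 nt and held 71.3% of reads. A 20-nt form that starts 1 base earlier held 9.33%, the 18-nt form 6.81% and the RefSeq form itself 6.25%. The first 2 are shown because they differ at their 5′ ends, which moves the seed by 1 base, and the capital marks the added base.
miR-144-3p, 19 nt: tacagtatagatgatgtac
miR-144-3p, 20 nt: Ctacagtatagatgatgtac

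**Figure D2:**
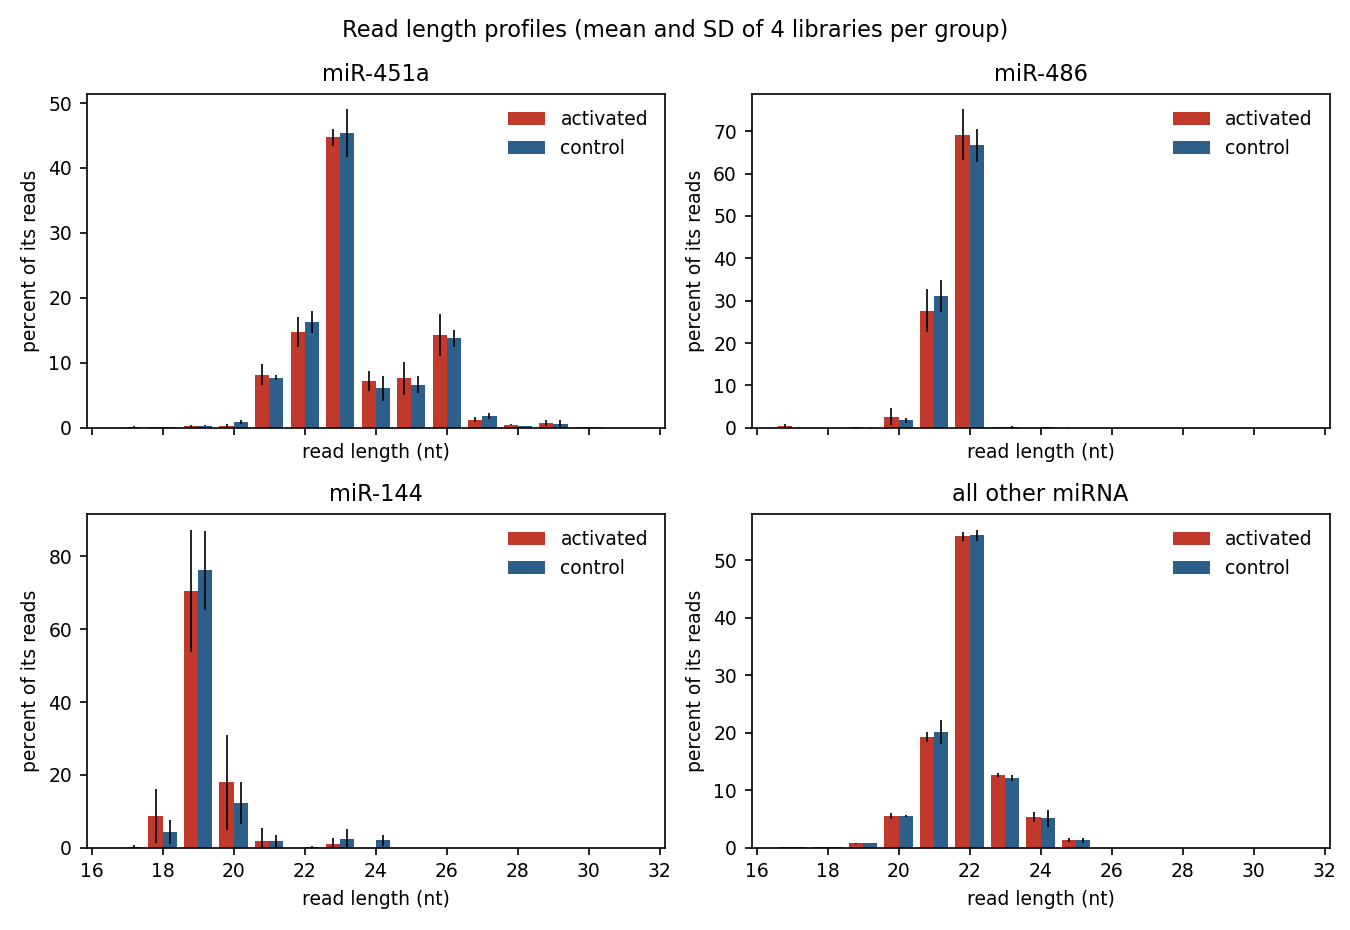
Read length in nt against percent of reads for miR-451a, miR-486, miR-144 and all other miRNA, as means of 4 libraries per group with SD bars. miR-451a extends past 23 nt with a second maximum at 26 nt in both groups, while miR-486 is confined nearly to 21 and 22 nt.

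Whether the long forms set miR-451a apart from miR-486 and from all other miRNA pooled was tested within libraries. Such a test does not use the contrast between groups. Reads of 24 nt or more made up 24.1%, 31.3%, 35.6% and 35.6% of miR-451a in activated replicates 1 to 4 and 29.4%, 26.2%, 31.4% and 29.97% in control replicates 1 to 4. The groups overlapped, at 31.7% ± 5.43 and 29.2% ± 2.21 (SD, n = 4 each). For miR-486 the share was 0% in 5 libraries and at most 0.257%. The 0 with fewest reads behind it, 0 of 243 in activated replicate 4, allows up to 1.23%, and that with the most, 0 of 3494 in control replicate 2, allows less. All other miRNA had 3.97% to 8.55%.

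The share was higher for miR-451a than for miR-486 in 8 of 8 libraries, by 30.4 ± 4.02 percentage points (SD, n = 8; exact sign-flip permutation test, two-sided, p = 0.00781, adjusted over 2 tests 0.00781). It was higher than in all other miRNA in 8 of 8 libraries as well, by 23.8 ± 3.58 points (SD, n = 8; exact sign-flip permutation test, two-sided, p = 0.00781, adjusted 0.00781). This is the smallest p that 8 libraries allow. All other miRNA was taken as the pooled reads of a library, in which abundant miRNAs weigh most. Shares of single miRNAs in that pool were not computed. The share for miR-144 was 0% to 3.33% and lay below that of miR-451a in 8 of 8 libraries, which was not tested. With the fewest reads, 0 of 12 in activated replicate 4, it allows up to 25%, against 35.6% for miR-451a there.

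**Figure D3:**
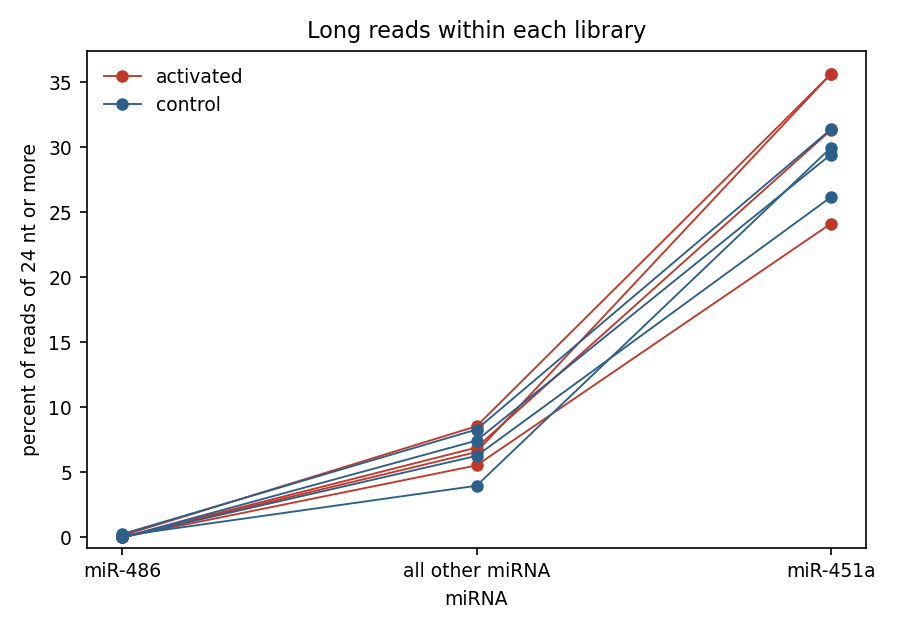
Percent of reads of 24 nt or more for miR-486, all other miRNA and miR-451a, with a line for each of the 8 libraries, coloured by group. Every line rises to miR-451a, which lies between 24.1% and 35.6%.

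Other RNA of blood was then examined beside the members. Reads of at least 20 nt that match haemoglobin transcripts of 4 genes, the oxygen carrier of red cells, were few. Sense reads of the alpha chain numbered 15, 0, 1 and 1 in activated replicates 1 to 4 and 0, 15, 6 and 8 in control replicates 1 to 4, from at most 5 distinct fragments in a library and from 4 in activated replicate 1. Beta chain reads numbered 0 in all activated libraries and 0, 1, 2 and 2 in control replicates 1 to 4. Libraries with 6 or more alpha chain reads were activated replicate 1 and control replicates 2, 3 and 4, which were also the 4 libraries highest in miR-451a and in miR-144. For miR-486 the 4 highest were the control libraries, and control replicate 1, with 0 haemoglobin reads, lay above activated replicate 1, with 15. No antisense haemoglobin read was found. Protamine reads, from sperm nuclear proteins, were present at 79.0 to 112 RPM in all libraries. The part of red cells in the levels of the members was not tested.

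All annotated RNA species past the minimum, other than piRNA, were fitted together, so that lists of other miRNAs could be read against the rest. Reads labelled piRNA and reads without annotation were left out, so the shares over all species do not cover them. With edgeR's quasi-likelihood test, 0 of 586 (0%) passed both thresholds in either direction, an adjusted p under 0.05 and an absolute log2 change over 1. At an unadjusted p under 0.05 and the same fold, 29 (4.95%) were lower and 4 (0.683%) higher, the latter being mmu-mir-669m and fragments of mitochondrial tRNA-Asp-GTC (those assigned to its 5′ end and those assigned to no end) and of the 5′ end of mitochondrial tRNA-Ile-GAT. These unadjusted counts moved with single libraries. The count of lower species was 18, 11 and 10 without activated replicates 1, 2 and 4, 46 without control replicate 1 and 15 without control replicate 4. The count of higher species was 7 without activated replicate 1, control replicate 2 or control replicate 4, and 2 without activated replicate 3 or control replicate 1. DESeq2 called 3 lower (0.512%) and 0 higher (0%) of the same 586, of which 36 received no adjusted p from it and could not be called. The 3 were miR-451a, miR-486 and the 5′ end of tRNA-Glu-TTC, of which the first 2 were chosen from this contrast, so their calls are no support for a difference. The median log2 fold change was -0.07 over all species and 0.15 over the 273 miRNA species. Without control replicate 4 the median over all species was 0.097.

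Of 15 other miRNAs listed for erythrocytes, 13 passed the minimum, mmu-mir-363 did not, and mmu-mir-451b had no read. edgeR called 0 of 13 and DESeq2 0 of the 10 to which it gave an adjusted p (mmu-mir-182, mmu-mir-96 and mmu-mir-210 had none), and 0 of 13 passed an unadjusted p under 0.05 with the fold minimum. Their log2 fold changes lay below 0 for 5 and above 0 for 8, with a median of 0.15, the same as for all miRNA species. The count below 0 was 1 of 13 without control replicate 4 and 7 of 13 without control replicate 3. The summed level was 155874, 116927, 81227 and 151584 RPM in activated replicates 1 to 4 and 100976, 140945, 56231 and 136990 RPM in control replicates 1 to 4, most of it mmu-mir-16. This miRNA is made in many cell types, and its log2 fold change was 0.21 (SE 0.38, edgeR adjusted p = 0.757). mmu-mir-92a, another abundant red cell miRNA, averaged 1862 ± 348 RPM with activation and 1957 ± 373 RPM without (SD, n = 4 each), a log2 fold change of -0.0018. The lowest values were those of mmu-mir-210, the hypoxia-induced miRNA (log2 fold change -1.49, SE 0.81, edgeR adjusted p = 0.556), and mmu-mir-96 (-1.18, SE 0.76, edgeR adjusted p = 0.591). In both, control replicate 4 was the highest library, at 64.6 and 821 RPM, and without it their log2 fold changes were 0.08 and 0.30. mmu-mir-182 and mmu-mir-183, from the same cluster as mmu-mir-96, stood at -0.83 and -0.41 with all libraries and at 0.32 and 0.48 without control replicate 4.

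Of 6 leukocyte and platelet miRNAs, 5 passed the minimum and 0 were called by either tool, with a median log2 fold change of 0.53 that was -0.40 without activated replicate 3. The summed level was 2249, 1399, 3363 and 1783 RPM in activated replicates 1 to 4 and 1387, 1407, 1136 and 1999 RPM in control replicates 1 to 4, so the groups overlapped. mmu-mir-342 was the most abundant, at 2657 RPM in activated replicate 3 and at most 1270.0 RPM elsewhere. mmu-mir-223, a miRNA of granulocytes and platelets, averaged 20.7 ± 15.8 RPM with activation and 20.1 ± 11.8 RPM without (SD, n = 4 each), a log2 fold change of 0.03. mmu-mir-142a, found across blood cells, averaged 519.7 ± 183.1 RPM with activation and 352.9 ± 105.6 RPM without (SD, n = 4 each), with a log2 fold change of 0.53 (edgeR adjusted p = 0.556). mmu-mir-150, of lymphocytes, was at 1.31 on the log2 scale, with 244.7 RPM in activated replicate 3 and 12.1 to 57.2 RPM in the other activated libraries, and mmu-mir-146a, an inflammatory regulator, at -1.35, each with an edgeR adjusted p above 0.5. Without activated replicate 3 mmu-mir-150 was at -0.60, and without control replicate 4, which held 326 RPM, mmu-mir-146a was at -0.45.

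In the vessel and muscle list and the epithelial list, median log2 fold changes moved most without control replicate 4, while unadjusted counts moved with several libraries. All 3 vessel and muscle miRNAs past the minimum, of 7 listed, and all 7 epithelial miRNAs had negative log2 fold changes, with medians of -4.70 and -2.16. edgeR called 0 of them. At an unadjusted p under 0.05 and the fold minimum, 2 of 3 and 4 of 7 were lower, against 29 of 586 (4.95%) over all species. DESeq2 called 0 of the 2 epithelial miRNAs to which it gave an adjusted p, while it gave none to the vessel and muscle miRNAs. Without control replicate 4 the medians were 0.10 and -0.08, and 0 of either list were lower by that unadjusted rule. These counts also moved with other libraries. The epithelial count was 3, 0, 1 and 0 without activated replicates 1 to 4 in turn, and 6 without control replicate 1. The vessel and muscle count was 1 without activated replicate 2 or 3, and 3 without control replicate 1, 2 or 3. Without control replicate 4, summed epithelial levels were 1731 ± 1164 RPM for activated (SD, n = 4) and 1974 ± 696 RPM for control sperm (SD, n = 3), and vessel and muscle levels 334 ± 150 (SD, n = 4) and 336 ± 98.0 RPM (SD, n = 3). Activated replicate 1 raised the epithelial mean, at 3476 RPM against 1166, 1085 and 1196 RPM in activated replicates 2 to 4. Control replicates 1 to 3 held 1364, 1825 and 2732 RPM. Activated replicates 2 to 4 thus lay below every control library and activated replicate 1 above control replicates 1 to 3, an order also seen for miR-451a against control replicate 1. The cause was not tested. By the mean of all 8 libraries, which control replicate 4 dominates, the most abundant miRNAs of these lists were mmu-mir-143 and mmu-mir-200c. In control replicate 4 itself mmu-mir-145a (17715 RPM) lay above mmu-mir-143 (17171 RPM), and in activated sperm mmu-mir-141 (725 ± 679 RPM, SD, n = 4) averaged more than mmu-mir-200c (590.4 ± 202.7 RPM, SD, n = 4). That order in activated sperm rested on replicate 1. In activated replicates 1 to 4 mmu-mir-141 stood at 1733, 376, 279 and 512 RPM and mmu-mir-200c at 886, 480, 554 and 441 RPM. Among the 12 testis and sperm miRNAs, mmu-mir-34b was the most abundant by the mean of all 8 libraries. mmu-mir-34c lay above it in activated replicates 1 and 4 and control replicate 2. All 12 passed the minimum and had positive log2 fold changes, with a median of 0.30, and none was called by edgeR or DESeq2. Without control replicate 3 that median was 0.17 and mmu-mir-741 was at -0.011, and without activated replicate 3 mmu-mir-34b was at -0.08. Leaving out control replicate 4 moved the median of all miRNA species from 0.15 to 0.42, that of the erythrocyte list from 0.15 to 0.36, that of the leukocyte and platelet list from 0.53 to 0.72 and that of the testis and sperm list from 0.30 to 0.45. Without control replicate 3 the median was 0.017 over all miRNA species and -0.015 over the erythrocyte list. The ratios of miR-451a and miR-486 without control replicate 4, given above, were 0.251 and 0.229.

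**Figure D4:**
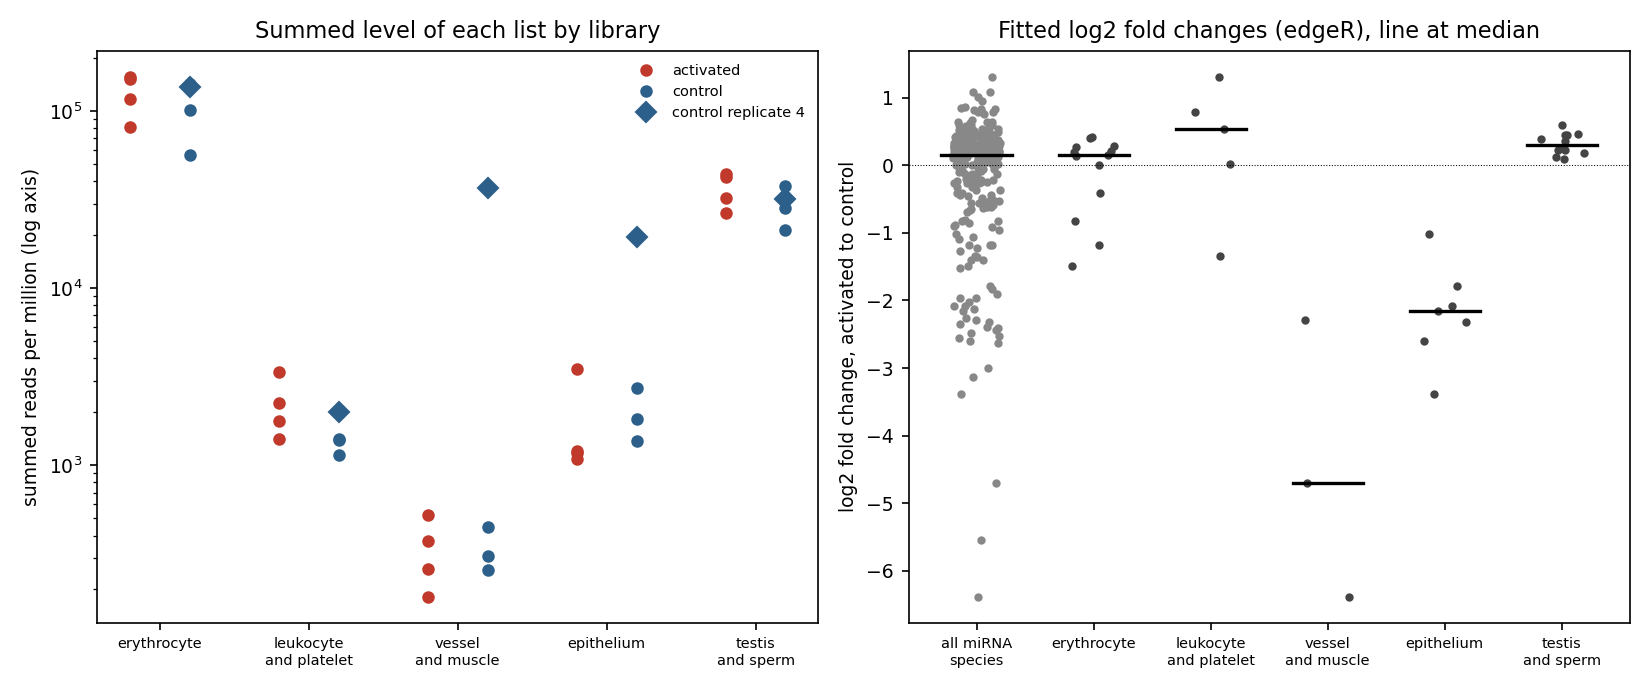
Left, summed RPM (log axis) of the miRNAs of each list in each library, with control replicate 4 as diamonds, at 36472 for vessel and muscle and 19420 for epithelium. Right, edgeR log2 fold change of each listed miRNA past the minimum and of all miRNA species, with lines at the medians, -4.70 for vessel and muscle and 0.15 for the erythrocyte list.

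The miRNA species whose levels over the 8 libraries were most like those of miR-451a, of 270 compared, were mmu-mir-3535 (Spearman 0.83), mmu-mir-146a (0.81), mmu-mir-199a (0.81), mmu-mir-10b (0.79) and mmu-mir-200c (0.79). For miR-486 they were mmu-mir-200c (0.88), mmu-mir-3535 (0.86), mmu-mir-10b (0.83), mmu-let-7e (0.81) and mmu-mir-10a (0.81). None of these was closer to miR-451a than miR-486 was, at 0.93. These correlations were picked as the highest of 270 for each member over only 8 libraries, and they were not tested. Like those between the members, they include the group contrast and share each library's denominator. Without control replicate 4 the values ranged from 0.82 to 0.89 for miR-451a and from 0.75 to 0.86 for miR-486, over 7 libraries. The ratio of activated to control RPM of these species ranged from 0.123 to 0.668 with all libraries and from 0.535 to 0.813 without control replicate 4, where miR-451a and miR-486 stood at 0.251 and 0.229.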

How the data were processed

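The authors made raw read counts of each distinct sequence with SPORTS1.1, which trimmed reads, kept those of 15 to 45 nt with duplicates, and matched them with 0 mismatches (bowtie) to mm10 and to small RNA databases, with miRNAs from miRBase 21. These deposited counts were used. Total reads per library ranged from 9297271 to 23123740. The members and lists were chosen with earlier results of these data known. Reads were summed by annotated RNA, split by tRNA end, and RNA species reaching 50 counts in 4 or more libraries entered edgeR 4.0.16 (quasi-likelihood test, TMM, library size as total reads, Benjamini-Hochberg) in R 4.3.3, and with DESeq2 1.42.0 and apeglm 1.24.0. Both tools used the groups of the deposited labels. Reads labelled piRNA and reads without annotation were not summed into species. edgeR and the sign-flip test were checked on simulated data. Named genes were the members, their main fragments at each length, the listed miRNAs and the 5 species most like miR-451a and miR-486, while species named for other reasons were chosen after their values were seen. Alternatives covered denominators, filters, length limits, a replicate block and each sample left out. Python 3.11.15, numpy 2.4.6, pandas 2.3.3 and matplotlib 3.10.9 were used. Haemoglobin and protamine fragments were found by exact match to GENCODE transcripts.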

Additional observations from a re-analysis of the deposited data

Results flagged for a closer look

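Among 46 groups of 4 libraries examined for a library far from the other 3, 10 held one, where chance gives about 1 in 20. Activated replicate 1 was the highest activated library for miR-451a at 178 RPM, for miR-144 at 22.5 RPM, for haemoglobin alpha reads at 1.01 RPM and for mmu-mir-210 at 17.9 RPM. Control replicate 1 was the lowest control library for haemoglobin alpha reads, with 0 RPM. Control replicate 4 was the highest control library for mmu-mir-182 at 1464 RPM, mmu-mir-183 at 697 RPM, mmu-mir-96 at 821 RPM, mmu-mir-210 at 64.6 RPM and mmu-mir-146a at 326 RPM. The cause of these values was not tested.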

How the results depend on the processing

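Other denominators, geometric means and reads of 20 to 24 nt left all 3 log2 ratios negative and within 1 SD of log2 RPM, pooled over the groups (0.89, 0.90 and 1.71 for miR-451a, miR-486 and miR-144). For miR-144 that SD is wide, and geometric means gave -1.68 against -0.72. Leaving out each library in turn gave -2.54 to -1.54 for miR-451a, -2.86 to -2.06 for miR-486 and -3.02 to -0.37 for miR-144, whose lowest value came without activated replicate 1, and the cause was not tested. No read named a member together with another RNA and all member reads matched the genome, so these alternatives changed nothing. edgeR called 0 species under each of its alternatives and without each library, and DESeq2 called 3. The length differences kept their direction and their side of the threshold under every length limit. Leaving out a library could change neither, since all 8 differences were positive, so that alternative shows no stability of them. Limits of 23, 25 and 26 nt gave 75.3, 23.8 and 16.7 points against miR-486 and 56.4, 22.4 and 16.7 points against all other miRNA. Leaving out each library gave 29.6 to 31.3 and 23.005 to 24.5 points.

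Replicate numbers did not pair the samples. Deviations of log2 levels from the group mean correlated at -0.507, 0.0432, 0.525 and -0.114 between libraries of the same number. Between libraries of different numbers these correlations ran from -0.554 to 0.51. With a replicate block, edgeR called 0 species, with 8 lower and 6 higher at an unadjusted p under 0.05 and the fold minimum. The log2 ratios with the block were -1.93, -2.32 and -1.68 for miR-451a, miR-486 and miR-144. In this balanced layout they must equal those from geometric means, so the block is no separate check of them. Depth limits miR-144 most, with 12 to 30 reads in 4 libraries.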
